A study of Mus musculus with 16 samples.

Results

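Transcripts of 10 genes of the circadian clock were followed in mouse neutrophils, and all 10 were found among the 49315 genes of the count tables by its Ensembl identifier and mouse symbol. They were Arntl (which encodes BMAL1) and Clock, the activators, Per1, Per2, Cry1 and Cry2, the repressors, Nr1d1 and Nr1d2, the REV-ERB receptors, and Dbp and Tef, PAR bZIP factors of the output. Neutrophils had been isolated from blood or lung by sorting for Ly6G, CD11b and CD45.2, from naive mice (0h, no treatment) and from mice 12 hours after cecal ligation and puncture (CLP), a surgical model of polymicrobial abdominal sepsis. The mice operated on were males of 8 to 12 weeks, and the age and sex of the naive mice are not given separately. Mice were wild type (WT) or knockout for the integrin αD (αD KO, CD11d, gene Itgad) and were kept in a light and dark cycle. The 8 groups of genotype, tissue and time had 3 count files each from 16 samples, and the files are called libraries 1a, 1b and 2. Libraries 1a and 1b are the files of sample 1, and the labels do not say whether they came from separate animals, so the spread between libraries may be technical in part. The n of 3 counts libraries from 2 samples a group, and p-values are too small if 1a and 1b share their animals.

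The operated mice also had anaesthesia and an analgesic, and no sham-operated group was among the samples used here. The clock time at which cells were taken is not given in the sources used here. A difference between 0h and 12 hours may therefore come from CLP, from the drugs and surgery, or from the time of day, and these cannot be told apart. For the same reason each time comparison is given for the activators and the repressors separately.

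In the clock of mammalian cells, BMAL1 and CLOCK bind as a pair to E-boxes and switch on the Per and Cry genes, whose proteins then hold the pair back. The same pair drives the REV-ERB receptors, which repress Arntl through ROR elements, and Dbp, which acts with Tef on D-boxes of output genes. Arntl and Dbp transcripts peak at opposite times of day in most tissues, and Per1 and Per2 are also induced directly by glucocorticoids and by signals through cyclic AMP. In mouse neutrophils, the clock is known to set the ageing of the cell in blood, with Cxcr2 and Cxcl2 promoting ageing and Cxcr4 opposing it.

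The windows shown here hold a motif through which a clock loop is closed, with 1 window for each gene. RefSeq start sites on GRCm38.p6 gave 14 windows, from 250 bases before to 50 bases after a start, for 9 of the 10 genes (no entry for Per2). The E-box CACGTG, searched on both strands, was in 4 of the 14 windows (1 of Per1, 1 of Cry1 and both of Tef), against 7.15% of all 32851 windows. The ROR element ANTNGGTCA was in 1 of the 14, a window of Arntl, against 2.24% of all windows, and the D-box (TTATGTAA or TTACGTAA, 1.06%) and the cyclic AMP element TGACGTCA (1.79%) were in none of the 14. Each sequence runs 5′ to 3′ on the strand of the gene, with the motif in capitals. They come from chr11:69098699-69098998 (plus strand) for Per1, chr10:85185005-85185304 (minus strand) for Cry1, chr15:81811164-81811463 (plus strand) for Tef and chr7:113207261-113207560 (plus strand) for Arntl.
Per1: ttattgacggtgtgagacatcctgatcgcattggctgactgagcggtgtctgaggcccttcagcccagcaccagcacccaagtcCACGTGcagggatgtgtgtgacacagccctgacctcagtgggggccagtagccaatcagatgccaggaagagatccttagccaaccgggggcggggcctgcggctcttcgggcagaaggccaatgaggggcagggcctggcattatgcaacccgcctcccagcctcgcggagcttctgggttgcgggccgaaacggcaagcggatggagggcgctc
Cry1: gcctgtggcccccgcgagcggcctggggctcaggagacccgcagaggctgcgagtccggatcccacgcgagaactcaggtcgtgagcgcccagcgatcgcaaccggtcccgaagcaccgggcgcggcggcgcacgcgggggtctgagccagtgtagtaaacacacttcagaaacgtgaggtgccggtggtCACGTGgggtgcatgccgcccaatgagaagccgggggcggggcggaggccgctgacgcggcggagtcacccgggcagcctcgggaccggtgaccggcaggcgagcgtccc
Tef: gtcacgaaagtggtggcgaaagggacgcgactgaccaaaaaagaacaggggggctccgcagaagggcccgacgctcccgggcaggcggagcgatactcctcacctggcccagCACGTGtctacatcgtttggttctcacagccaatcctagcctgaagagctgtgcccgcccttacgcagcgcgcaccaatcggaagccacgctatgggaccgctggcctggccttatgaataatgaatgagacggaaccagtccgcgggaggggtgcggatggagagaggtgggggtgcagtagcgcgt
Arntl: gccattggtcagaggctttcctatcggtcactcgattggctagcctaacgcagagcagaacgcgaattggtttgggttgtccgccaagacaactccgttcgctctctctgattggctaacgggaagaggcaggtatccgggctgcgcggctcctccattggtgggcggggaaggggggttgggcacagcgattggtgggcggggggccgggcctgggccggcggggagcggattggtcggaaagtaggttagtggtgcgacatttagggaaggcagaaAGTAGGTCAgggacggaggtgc
Counted from the start site, the first base of the motif lay at −166 in Per1, −60 in Cry1, −138 in Tef and 28 in Arntl. The Tef window not shown, chr15:81802423-81802722 (plus strand), holds the E-box at −127. A match is a string of letters and was not tested for binding.

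Total counts per library were 5753476 to 29984954 (median 18741144). The 8 libraries 1b stood apart, with totals of 5753476 to 17976890 and counts in 29162 to 38844 genes, against 16565779 to 29984954 and 17132 to 32666 genes in the other 16. Itgad ran from 12.5 to 101.9 CPM (counts scaled to a common library size by TMM) where the label was αD KO (12 libraries) but from 0.0583 to 3.66 CPM where it was WT (12), the opposite of what a lost transcript would give. The counts are per gene and not per exon, so a product of the altered gene and a complete transcript look the same, and αD KO refers here to the label. Among αD KO lung libraries, 3 went against their time labels along an axis of 1340 genes, those that passed the test between the times in WT lung. On this axis the WT lung mean of 0h is 0 and that of 12 hours is 1. Library 2 labelled 0h lay at 1.029, and libraries 1a and 2 labelled 12h lay at 0.098 and 0.189. All 10 neutrophil markers had counts in every group, and their summed level was 30841.2 to 215693.1 CPM.

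The clock genes were expressed over a wide range. In TPM, which takes gene length into account, the median level over the 24 libraries was 30.7 for Cry1, 19.6 for Per1, 18.2 for Per2, 3.76 for Cry2, 1.87 for Clock and 1.69 for Dbp. It was 0.644 for Arntl, 0.564 for Tef, 0.542 for Nr1d2 and 0.16 for Nr1d1. The repressors Cry1, Per1 and Per2 thus led the order, and Per2 was above Cry2 in all 24 libraries with no overlap of their ranges. Each of the other neighbours in this order overlapped, and Per1 was above Per2 in 12 of 24 libraries and Cry1 above Per1 in 19. Nr1d1 had between 0 and 33 counts per library and was listed at 0 in 3 libraries, where 3 counts would be 0.109 to 0.214 CPM, so that its changes were at the limit of detection. Within groups, the SD of log2 CPM was 1.43 for Per1, 1.43 for Dbp and 1.29 for Nr1d1 and lay between 0.635 and 0.971 for the other 7 genes. The median SD over genes at a mean of 10 CPM or more was 0.587. Clock, Per1, Per2, Cry1 and Cry2 reach this mean, and each spread more widely than that, with Cry1 closest at 0.635. The other clock genes had means of 3.3 CPM or less, so this median is not matched to their level.

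**Figure D1:**
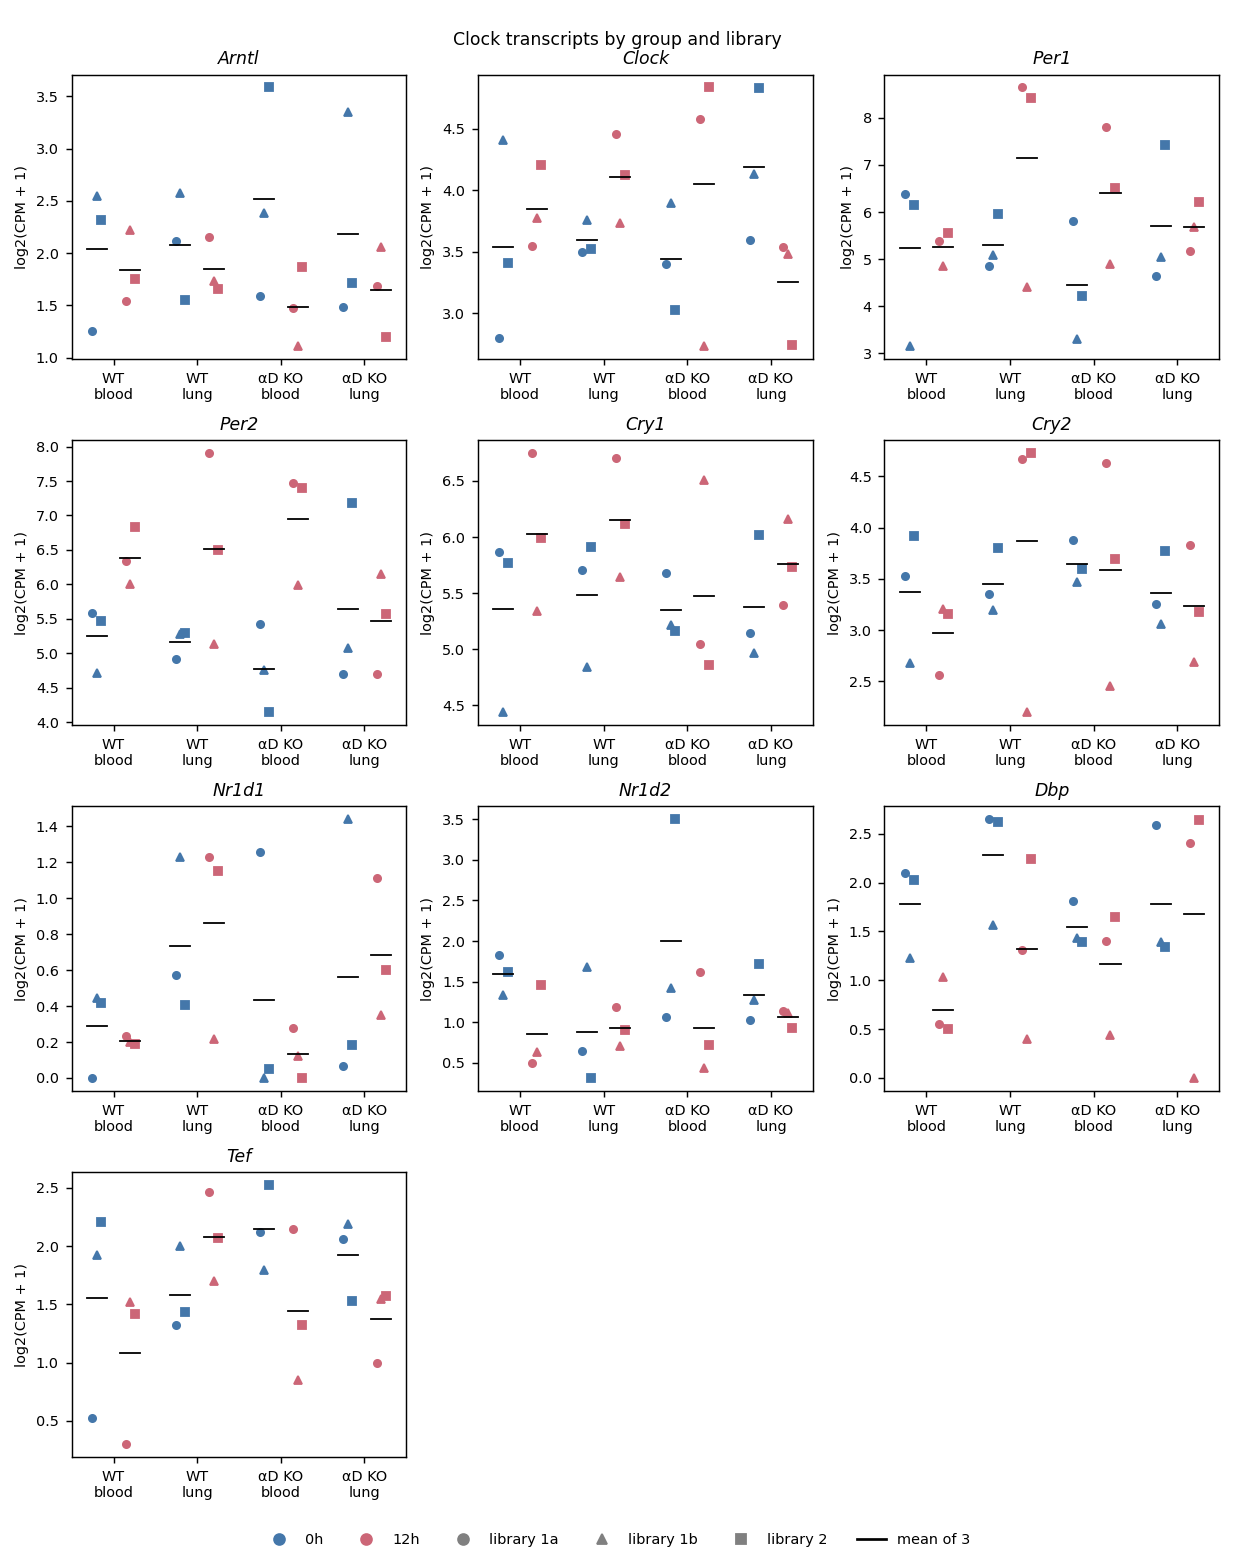
Each panel plots log2(CPM + 1) of a clock gene in every library by genotype and tissue, with 0h in blue and 12h in red, a marker shape for each library and a line at the mean of 3 log values. Per2 stood higher at 12h without overlap in WT blood and αD KO blood, Dbp in WT blood and Clock in αD KO lung stood lower without overlap, and the other values overlapped between the times.

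Per2, the repressor whose transcript is often used as a clock reporter, rose after CLP in αD KO blood neutrophils. Per2 was 42.1, 25.9 and 16.7 CPM in libraries 1a, 1b and 2 at 0h and 175.6, 62.4 and 168.0 CPM at 12 hours. Every 12h library was above every 0h library, and the log2 fold change was 2.00 (standard error 0.46, edgeR adjusted p = 0.0354). The fold change was positive in all 15 alternatives run, at 1.81 to 2.42, but the adjusted p ranged from 0.000131 to 0.163. It was above 0.05 without 0h library 1a (0.107), 1b (0.0796) or 2 (0.086) and without 12h library 1a (0.147) or 2 (0.163). A fit of all 8 groups (0.097) and summing libraries 1a and 1b (0.0527) also lost the call.

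In WT blood, Per2 was 46.8, 25.3 and 43.1 CPM at 0h and 79.7, 63.1 and 112.5 CPM at 12 hours. The groups again did not overlap, but the log2 fold change of 0.95 (standard error 0.28, edgeR adjusted p = 0.0638) did not pass the threshold. With the files of sample 1 summed it did (1.09, adjusted p = 0.0277, in a range of 0.0123 to 0.758 over all alternatives). In WT lung, Per2 was 29.2, 37.8 and 38.4 CPM at 0h and 238.0, 34.2 and 89.5 CPM at 12 hours. Library 1b at 12 hours lay inside the 0h range, and the log2 fold change was 1.61 (standard error 0.54, edgeR adjusted p = 0.101). Without that library it was 1.85 (adjusted p = 0.0132, in a range of 0.00643 to 0.788). In αD KO lung, Per2 was 24.9, 32.6 and 143.9 CPM at 0h and 24.9, 70.1 and 46.3 CPM at 12 hours, with a log2 fold change of −0.32 (standard error 0.73). The highest of these values was in the 0h library at position 1.029 of the axis. Without the 3 libraries that went against their labels the sign turned, to 1.37 for Per2 (standard error 0.65, edgeR adjusted p = 0.583), with 1 library left at 12 hours that is assumed to vary like the others.

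Averaged over the 4 combinations of genotype and tissue, Per2 had a mean of 97.0 CPM at 12 hours and 42.2 CPM at 0h. The averaged log2 fold change was 1.17 (standard error 0.33, edgeR adjusted p = 0.0218), while the median over all 27145 genes tested in this fit was −0.51. Without the 3 αD KO lung libraries that went against their labels it was 1.63 (adjusted p = 0.0016). The call was lost without any of 10 libraries, with log2 fold changes of 0.85 to 1.14 and adjusted p values of 0.0485 to 0.0934. Those were WT blood 0h 1b and 12h 1a and 2, WT lung 0h 1a and 2 and 12h 1a, αD KO blood 0h 1b and 2 and 12h 1a, and αD KO lung 0h 1a. It was also lost where every library had to hold at least 10 counts, since the log2 fold change was then 0.97 (adjusted p = 0.00953). With libraries 1a and 1b summed it was 1.16 (adjusted p = 0.0221).

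Per1, the other PER repressor and a known early target of glucocorticoids, had the widest range. In WT lung it was 27.8, 32.9 and 61.3 CPM at 0h and 398.9, 20.2 and 339.8 CPM at 12 hours. Libraries 1a and 2 at 12 hours were far above the 0h libraries and library 1b was below them, so the log2 fold change of 2.43 (standard error 0.82) had an edgeR adjusted p of 0.102. Without library 1b at 12 hours it was 2.85 (adjusted p = 0.0017, in a range of 0.00109 to 0.583), and DESeq2 called Per1 (adjusted p = 0.0124) and Per2 (adjusted p = 0.0338) with that library included.

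Per1 in αD KO blood was 54.8, 8.86 and 17.7 CPM at 0h and 221.2, 28.6 and 90.6 CPM at 12 hours. The groups overlapped, since 12h library 1b was below 0h library 1a, and the log2 fold change was 1.87 (standard error 0.76, edgeR adjusted p = 0.154). DESeq2 called it (1.91, adjusted p = 0.0443, in a range of 0.000836 to 0.553). Per1 in WT blood was 82.9, 7.91 and 70.0 CPM at 0h and 40.7, 28.0 and 45.8 CPM at 12 hours, a log2 fold change of −0.64 (standard error 0.64, edgeR adjusted p = 0.55). Its call turned on 0h library 1b, without which it was lower at 12 hours (−1.13, adjusted p = 0.0167, in a range of 0.0167 to 0.962). In αD KO lung, Per1 was 23.9, 31.9 and 171.5 CPM at 0h and 35.2, 50 and 73.4 CPM at 12 hours, and the highest value was again in 0h library 2. The log2 fold change was −0.41 (standard error 0.72), and 0.93 (standard error 0.65, edgeR adjusted p = 1.0) without the 3 libraries that went against their labels, on the same assumption.

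No CRY repressor was called over time. Cry1, which prolongs repression late in the cycle, had group means of 40.3 to 45.9 CPM at 0h and 50 to 73.6 CPM at 12 hours. The log2 fold changes of Cry1 were 0.46 in WT blood, 0.61 in WT lung, 0.15 in αD KO blood and 0.49 in αD KO lung, with edgeR adjusted p values of 0.305 or more. In αD KO blood, Cry1 was 50.1, 36.1 and 34.8 CPM at 0h and 32.1, 90.0 and 28.0 CPM at 12 hours, where only library 1b lay above the 0h range and both others lay below it. The sign turned there without the libraries 1b (−0.69) and under the replicate block (−0.12), and without the libraries 1b the value for Cry1 was −0.08 in αD KO lung and 0.02 in the average. Cry2 in WT lung was 9.2, 8.14 and 12.9 CPM at 0h and 24.5, 3.6 and 25.4 CPM at 12 hours. It had the arrangement of Per1, with library 1b below all 0h libraries and the others above them (log2 fold change 0.65, standard error 0.55, edgeR adjusted p = 0.5). In the other combinations its log2 fold changes were −0.64, −0.06 and −0.07.

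Among the activators, Arntl was low at every time. In αD KO blood, Arntl was 2.02, 4.22 and 11.0 CPM at 0h and 1.78, 1.16 and 2.64 CPM at 12 hours. The highest 12h library overlapped the lowest 0h library, and the log2 fold change was −1.85 (standard error 0.71, edgeR adjusted p = 0.135). Without 0h library 2, the highest of the 6, that of Arntl was −0.97 (adjusted p = 0.431). Its log2 fold changes were −0.55 in WT blood, −0.42 in WT lung and −0.93 in αD KO lung. The average of Arntl was −0.83 (standard error 0.35, edgeR adjusted p = 0.149), in a fit where the median over all genes was −0.51. It was called only where every library had to hold at least 10 counts (−1.08, adjusted p = 0.0269, in a range of 0.0269 to 0.537). Arntl lies on chromosome 7, 14.8 Mb from Itgad, and its log2 difference between αD KO and WT averaged over all groups was 0.09 (standard error 0.35).

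Clock, the partner of BMAL1, was 11.1, 16.5 and 27.5 CPM at 0h and 10.6, 10.2 and 5.69 CPM at 12 hours in αD KO lung. The groups did not overlap, while 2.88% of the 17939 genes tested in αD KO lung did not either, and the log2 fold change was −0.94 (standard error 0.48, edgeR adjusted p = 1.0). All 3 libraries that went against their labels enter this value, and without them it was −0.34 (standard error 0.70). In WT blood, WT lung and αD KO blood the log2 fold change of Clock was −0.08, 0.51 and 0.55 with overlapping groups. With libraries 1a and 2 alone it was 0.63, 0.6 and 1.41 in that order (edgeR adjusted p of 0.0664 or more), so the sign turned in WT blood.

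Neither REV-ERB receptor was called over time by edgeR. Nr1d2 was 2.54, 1.53 and 2.06 CPM at 0h and 0.408, 0.552 and 1.74 CPM at 12 hours in WT blood. It was lower in 2 of 3 libraries at 12 hours than in any at 0h (log2 fold change −1.41, standard error 0.77, edgeR adjusted p = 0.274). Nr1d2 in αD KO blood was 1.09, 1.69 and 10.3 CPM at 0h and 2.07, 0.358 and 0.643 CPM at 12 hours, a log2 fold change of −2.28 (standard error 1.01, edgeR adjusted p = 0.187) that rested largely on 0h library 2, since it was −0.67 without it. In lung the Nr1d2 groups overlapped, with log2 fold changes of −0.11 in WT and −0.52 in αD KO when all 8 groups were fitted. With libraries 1a and 2 alone they were 1.15 in WT and −0.63 in αD KO. The averaged value of Nr1d2 was −0.98 (standard error 0.46, edgeR adjusted p = 0.212), in a fit where the median over all genes was −0.51. DESeq2 called it (−1.12, adjusted p = 0.0446, in a range of 0.0446 to 0.65). Nr1d1 passed the filter on low counts only in WT lung among the 4 time comparisons (0.488, 1.34 and 0.324 CPM at 0h, 1.34, 0.16 and 1.22 CPM at 12 hours, log2 fold change 0.16, standard error 0.87). Its exons share 263 bases with Thra on the opposite strand (3.97 CPM at the median), and the sources used here do not say if counting used the strand.

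Of the PAR bZIP factors, Dbp, the output gene with the deepest daily cycle in many tissues, was lower after CLP in WT blood in every library. Dbp was 3.27, 1.35 and 3.07 CPM at 0h and 0.467, 1.05 and 0.418 CPM at 12 hours. The groups did not overlap, and the log2 fold change was −2.06 (standard error 0.77, edgeR adjusted p = 0.119). In libraries 1a and 2 alone it was −3.05 (adjusted p = 0.0189, in a range of 0.0189 to 0.805).

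Dbp in WT lung was 5.26, 1.96 and 5.14 CPM at 0h and 1.48, 0.32 and 3.72 CPM at 12 hours, with a log2 fold change of −1.30 (standard error 0.77). In αD KO blood Dbp was 2.52, 1.69 and 1.63 CPM at 0h and 1.64, 0.358 and 2.14 CPM at 12 hours, with a log2 fold change of −0.75 (standard error 0.76). These groups overlapped. In αD KO lung it was 5.01, 1.63 and 1.54 CPM at 0h and 4.3, 0.0 and 5.22 CPM at 12 hours (log2 fold change 0.14, standard error 1.26). With the 3 libraries that went against their labels left out, 12h library 1b alone stood against 0h libraries 1a and 1b. It held 0 counts, and against the floor of 3 counts (0.206 CPM) Dbp was at least 16.1-fold lower there than their mean of 3.32 CPM, and at least 7.91-fold lower than in 0h library 1b alone. Dbp shares 539 exonic bases, 18.0% of its length, with Sphk2 on the opposite strand (42.8 CPM at the median), so counts of Dbp can hold reads of Sphk2. Tef had log2 fold changes of −1.01, 0.59, −1.11 and −0.74 in WT blood, WT lung, αD KO blood and αD KO lung, with overlapping groups in each.

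**Figure D2:**
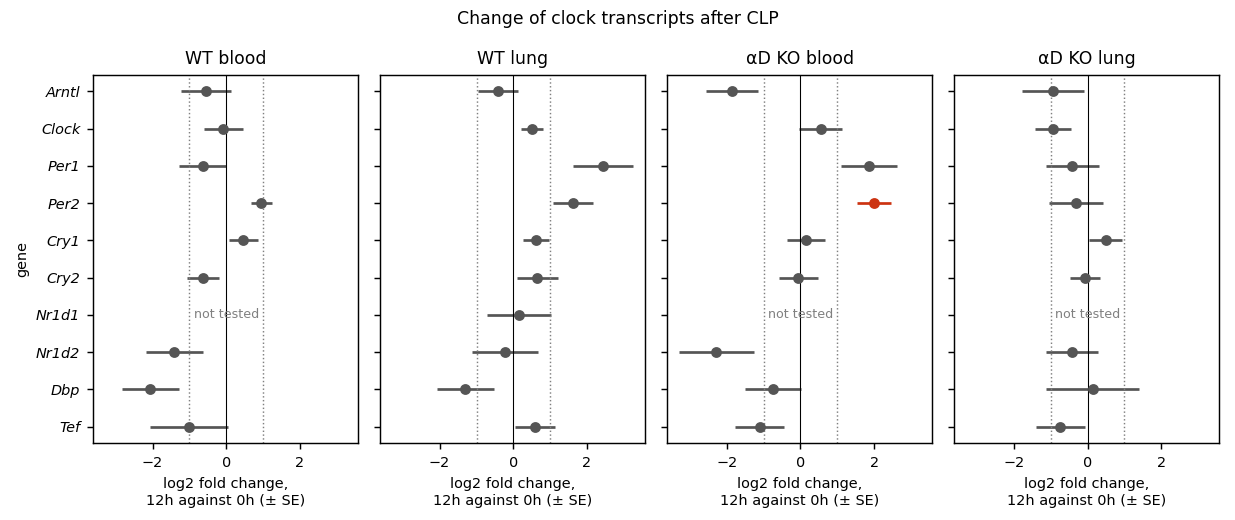
Points give the edgeR log2 fold change of each gene at 12h against 0h and bars its standard error, in a panel for each genotype and tissue; red marks the called gene and dotted lines mark a log2 fold change of 1 in each direction. Per2 in αD KO blood was 2.00 and is the only red point, and Nr1d1 did not pass the filter in 3 panels.

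In counts, 1 of the 9 clock genes tested was called (adjusted p under 0.05 and absolute log2 fold change over 1) in αD KO blood, where 8.75% of all genes tested were. None of 9 was called in WT blood, where 13.5% of all genes were, none of 10 in WT lung (9.02%) and none of 9 in αD KO lung (0.0%). At an unadjusted p under 0.05 there were 2 of 9 in WT blood (28.8% of all genes), 2 of 10 in WT lung (26.6%), 3 of 9 in αD KO blood (27.8%) and 0 of 9 in αD KO lung (0.401%). The groups did not overlap for 2 of 9 in WT blood (34.7% of all genes), 0 of 10 in WT lung (28.5%) and 1 of 9 in αD KO blood (32.2%). DESeq2 called 2 clock genes in WT lung (19.0% of all genes) and 2 in αD KO blood (15.9%). In the average over genotypes and tissues edgeR called 1 of 10 (7.72% of all genes), with 3 of 10 against 22.5% below 0.05 before adjustment, while DESeq2 found 2 (12.3%). With so few genes a single call is a share close to that of all genes. The median log2 fold change of the clock genes was −0.64, 0.55, −0.06 and −0.41 in the order WT blood, WT lung, αD KO blood and αD KO lung, and that of all genes was −0.15, 0.03, −0.14 and −0.05.

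The positive and negative arms were compared as the mean log2 CPM of their genes in each library, which is a description without a test. The repressor arm (Per1, Per2, Cry1 and Cry2) differed between 12 hours and 0h by 0.36 in WT blood, 1.08 in WT lung, 1.06 in αD KO blood and 0.02 in αD KO lung. The activator arm (Arntl and Clock) differed by 0.06, 0.13, −0.34 and −0.83. The PAR bZIP arm (Dbp and Tef) differed by −1.29, −0.41, −0.87 and −0.81, and the REV-ERB arm by −0.7, 0.23, −1.1 and 0.14. Several of these values rest on a library 1b. The repressor arm in WT blood was 5.3, 3.63 and 5.29 at 0h and 5.18, 4.79 and 5.33 at 12 hours, and with libraries 1a and 2 alone it differed by −0.04. The PAR bZIP arm in WT lung was 1.56, 1.34 and 1.62 at 0h and 1.44, 0.01 and 1.83 at 12 hours, and in αD KO lung 2.03, 1.34 and 0.86 at 0h and 1.14, −1.09 and 1.74 at 12 hours. In both, only 12h library 1b lay below all 0h libraries, and with libraries 1a and 2 alone the differences were 0.04 and 0.0, against −1.72 in WT blood and −0.45 in αD KO blood. In the same setting the repressor arm differed by 1.77 in WT lung, 1.21 in αD KO blood and −0.29 in αD KO lung, the activator arm by 0.35, 0.46, 0.25 and −0.7 and the REV-ERB arm by −0.51, 1.36, −1.38 and 0.84, in the order above. In blood the log2 fold changes of Per2 were 0.95 in WT and 2.00 in αD KO. Those of Dbp were −2.06 and −0.75, the latter with overlapping groups. In WT blood Per1, Cry2 and Nr1d2 had the sign of Dbp, and Cry1 that of Per2. In αD KO blood Per1 and Cry1 had the sign of Per2 and Nr1d2 that of Dbp, while Cry2 hardly changed. The αD KO lung values hold the 3 libraries that went against their labels. Without them, with 1 library at 12 hours against 2 at 0h, the repressor arm differed by 0.69, the activator arm by −0.38, the REV-ERB arm by −0.26 and the PAR bZIP arm by −2.78, the last resting on the library with 0 counts of Dbp. Within every arm the libraries at 12 hours and 0h overlapped in each combination. Arntl minus the mean of Nr1d1, Nr1d2, Dbp and Per2 (log2 CPM), which would move with the phase of the loop, differed by 0.3 in WT blood, −0.37 in WT lung, −1.14 in αD KO blood and −0.48 in αD KO lung (0.64 without the 3 libraries), and its SD within a group was 0.3 to 1.51.

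**Figure D3:**
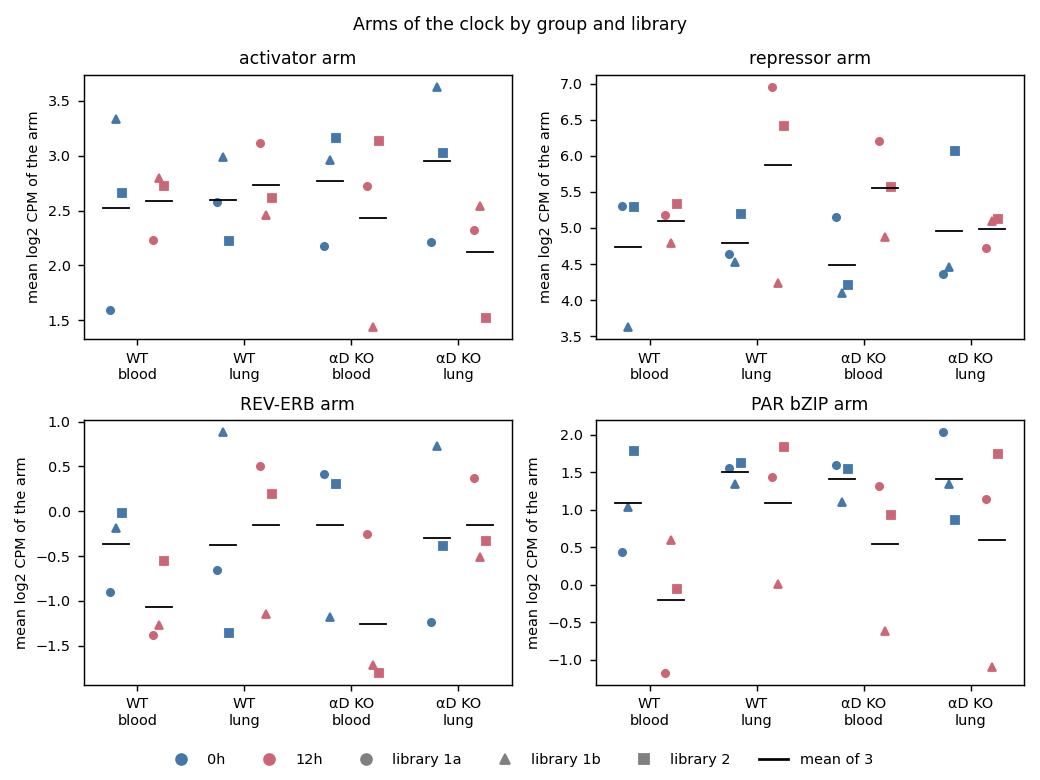
Panels plot the mean log2 CPM of the genes of each arm in every library, with 0h in blue, 12h in red and a line at the mean of 3. In WT lung at 12h the repressor arm was 6.96 and 6.42 in libraries 1a and 2 and 4.24 in library 1b.

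Marker levels of other cell types also differed with time. The summed level of 6 B cell markers was 261.4 to 1200.5 CPM at 0h and 40.4 to 226.9 CPM at 12 hours in WT blood, and that of 7 platelet markers was 53.9 to 151.8 CPM at 0h and 7.03 to 34.2 CPM at 12 hours. In αD KO blood the same sums were 314.8 to 1259.6 and 37.1 to 134.2 CPM for B cells, and 33.5 to 794.1 and 6.45 to 49.3 CPM for platelets. In WT lung the B cell sum was 402.1 to 757.9 CPM at 0h and 34.5 to 84.1 CPM at 12 hours, while in αD KO lung it was 53.9 to 418.0 CPM (median 269.9) and 43.4 to 512.4 CPM (median 512.1). The sum of 7 T and NK cell markers reached 259.4 CPM in αD KO blood at 0h (median 26.3) and was 9.22 to 18.6 CPM at 12 hours. The sum of 6 erythroid markers was 1814.0 to 9082.9 CPM at 0h (median 6528.5) and 27.4 to 5889.3 CPM at 12 hours (median 517.5) in αD KO blood, against 253.8 to 3844.8 and 380.3 to 2447.8 CPM in WT blood. The sum of 8 monocyte and macrophage markers was 660.6 to 1695.9 and 585.1 to 726.8 CPM in αD KO blood, and 479.9 to 1303.6 and 543.9 to 1050.4 CPM in WT blood. That of 10 lung structural markers was 47.5 to 161.0 CPM at 0h and 82.6 to 341.8 CPM at 12 hours in WT lung, and 110.1 to 1095.4 and 44.6 to 193.1 CPM in αD KO lung. No marker was at 0 over a group except 1 lung structural marker in αD KO blood at 12 hours. The neutrophil sum was 30841.2 to 54069.7 CPM at 0h and 118098.6 to 215693.1 CPM at 12 hours in WT blood, and 37557.0 to 64553.4 and 124852.2 to 154070.6 CPM in αD KO blood. The part of other cells in the change of the clock genes was not tested, and fewer cells of a type and less RNA per cell cannot be told apart in these bulk samples.

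Between αD KO and WT, no clock gene was called at any time in either tissue. That was 0 of 9 in blood at 0h (0.0115% of all genes called), 0 of 9 in blood at 12 hours (0.0%), 0 of 9 in lung at 0h (0.0%), 0 of 10 in lung at 12 hours (0.0%) and 0 of 10 averaged over the groups (0.0442%). Per1 had the lowest p of the clock genes at 12 hours, and in opposite directions. In blood at 12 hours, αD KO libraries held 221.2, 28.6 and 90.6 CPM of Per1, while WT libraries held 40.7, 28.0 and 45.8 CPM. The groups overlapped (log2 fold change 1.52, standard error 0.57, edgeR adjusted p = 0.962), and with no filter on low counts Per1 was called (1.52, adjusted p = 0.0207, in a range of 0.0207 to 1.0). It was the only clock gene of 9 at an unadjusted p under 0.05, where 4.01% of all genes were. In lung at 12 hours, αD KO libraries held 35.2, 50 and 73.4 CPM, while WT libraries held 398.9, 20.2 and 339.8 CPM. WT library 1b lay below all of αD KO (−1.96, standard error 0.85, edgeR adjusted p = 0.601), 1 of 10 against 8.29% of all genes. Without WT library 1b the lung value was −2.51 (adjusted p = 0.042, in a range of 0.000571 to 1.0). Libraries 1a and 2 of αD KO lung went against their 12h label, and without them it was −1.94 (standard error 1.58, edgeR adjusted p = 1.0), a fit in which the 1 library left is assumed to vary like the others. With libraries 1a and 2 alone, Per1 (−2.63), Per2 (−2.05, adjusted p = 0.00596) and Cry2 (−1.07, adjusted p = 0.046) were called, and both of the αD KO libraries then used went against their label. Averaged over the groups the difference of Per1 was −0.19 (standard error 0.47) and that of Per2 −0.05 (standard error 0.32).

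Whether the change with time differed between the genotypes was tested as an interaction. None of 9 clock genes was called in blood (0.0% of all genes) and none of 10 in lung (0.0%). In lung the change of Per1 was lower in αD KO by 2.83 on the log2 scale (−2.83, standard error 1.22, edgeR adjusted p = 0.448). The change of Clock was also lower in αD KO, with a difference of −1.40 (standard error 0.53, edgeR adjusted p = 0.41). These were 2 of 10 at an unadjusted p under 0.05, where 10.5% of all genes were. All 3 αD KO lung libraries that went against their labels enter these values, and without them Per1 was −1.46 (standard error 1.41) and Clock −0.78 (standard error 0.56), both at an edgeR adjusted p of 1.0 with 1 αD KO library at 12 hours. In blood the difference for Per1 was 2.59 (standard error 1.25, edgeR adjusted p = 1.0) and for Per2 1.18 (standard error 0.67, edgeR adjusted p = 1.0).

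The values in lung can be read beside the position of each library on the axis between the WT lung means. The library of αD KO lung labelled 0h at position 1.029 had 143.9 CPM of Per2 and 171.5 CPM of Per1, and WT 12h library 2 at position 1.058 had 89.5 and 339.8 CPM. The αD KO 12h library 1a, at position 0.098, had 24.9 CPM of Per2 and 35.2 CPM of Per1, and the 0h library 1a, at 0.153, had 24.9 and 23.9 CPM. The αD KO 12h library 2, at 0.189, had 46.3 CPM of Per2 and 73.4 CPM of Per1, above every WT lung library of 0h (29.2 to 38.4 and 27.8 to 61.3 CPM). WT 12h library 1b, at 0.653, had 34.2 CPM of Per2 and 20.2 CPM of Per1, within or below the WT range at 0h. Cry2 and Dbp in 12h library 1b were low in both genotypes (3.6 and 0.32 CPM in WT, 5.43 and 0.0 CPM in αD KO), at positions 0.653 and 0.827. The mean used to place a WT library did not include it, but the genes of the axis were those called between the times with all WT lung libraries. Positions of WT lung libraries near 0 and 1 are thus set in part by that choice, and the positions are a description.

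**Figure D4:**
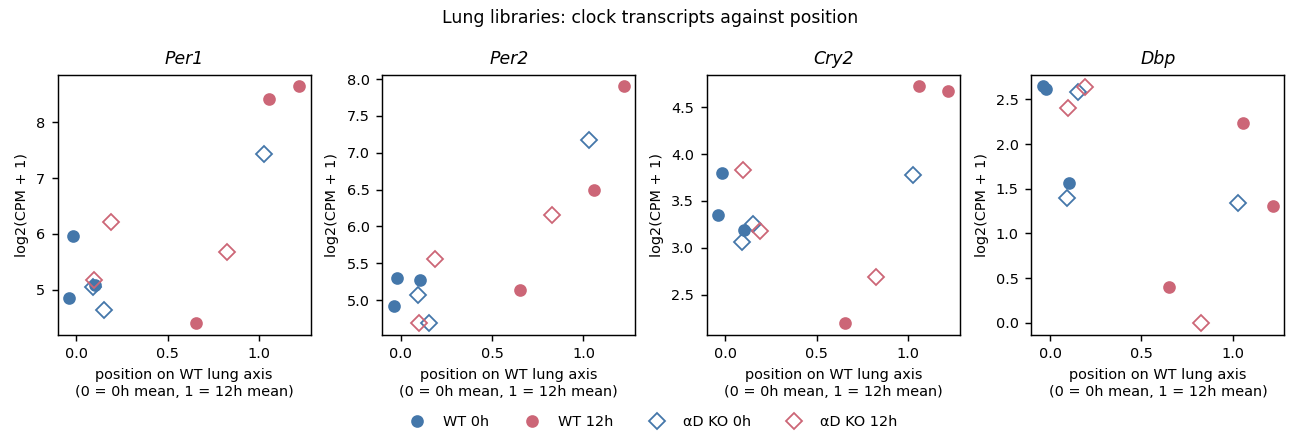
Log2(CPM + 1) of Per1, Per2, Cry2 and Dbp is plotted for the 12 lung libraries against their position on the axis from WT lung at 0h (0) to WT lung at 12h (1), where filled circles are WT, open diamonds αD KO, blue 0h and red 12h. The blue diamond at 1.029 had 171.5 CPM of Per1, next to WT libraries of 12h.

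Between lung and blood, again no clock gene was called. The counts were 0 of 10 in WT at 0h (0.0% of all genes), 0 of 9 in WT at 12 hours (0.0442%), 0 of 9 in αD KO at 0h (0.0%), 0 of 9 in αD KO at 12 hours (0.0548%) and 0 of 10 averaged (1.6%). In WT at 12 hours Per1 had a mean of 253.0 CPM in lung and 38.2 CPM in blood (log2 fold change 2.63, standard error 0.77, edgeR adjusted p = 0.165), and 1 of 9 clock genes against 18.1% of all genes was below 0.05 before adjustment. By DESeq2, Per1 was called there (6.59% of all genes). Without WT lung 12h library 1b, edgeR called Per1 (3.14, adjusted p = 0.0014) and Cry2 (1.65, adjusted p = 0.0181), in ranges over the alternatives of 0.000583 to 0.737 for Per1 and 0.00611 to 0.826 for Cry2. Nr1d1 had 3, 3 and 2 counts in these blood libraries and 19, 2 and 21 in lung, so that it passed the filter in that fit only through the lung libraries where it is high, and nothing is read from its call there. Nr1d1 had an averaged log2 difference of 1.78 (standard error 0.82, edgeR adjusted p = 0.385, means of 0.726 CPM in lung and 0.241 CPM in blood). It was the 1 of 10 clock genes at an unadjusted p under 0.05, against 12.0% of all genes. All 3 libraries with 0 counts of Nr1d1 were of blood. It was near the floor there, so nothing is read from this difference either.

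The change with time also did not pass the test of a difference between the tissues, with 0 of 10 called in WT (0.0%) and 0 of 10 in αD KO (0.0%). In WT the difference for Per1 was 2.99 (standard error 1.22, edgeR adjusted p = 0.876), 1 of 10 at an unadjusted p under 0.05 against 5.49% of all genes. With libraries 1a and 2 alone, Per1 (3.85, edgeR adjusted p = 0.0081) and Cry2 (2.09, edgeR adjusted p = 0.0344) were called in WT, as were 7.41% of all genes. In αD KO the difference was −2.72 for Per2 (standard error 0.95, edgeR adjusted p = 0.403) and −1.89 for Clock (standard error 0.77, edgeR adjusted p = 0.415), 2 of 10 against 10.6%. The αD KO lung libraries that went against their labels enter these last values, and without them Per2 was −0.95 (standard error 0.84) and Clock −1.30 (standard error 0.98), both at an edgeR adjusted p of 1.0 with 1 αD KO lung library at 12 hours.

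Of 10 further clock genes, Ciart and Bhlhe40 were called. Ciart encodes CHRONO, a repressor of BMAL1 and CLOCK that is itself driven by E-boxes. Ciart was 8.78, 1.26 and 15.9 CPM at 0h and 0.642, 0.602 and 0.835 CPM at 12 hours in WT blood. All 12h libraries were below all 0h libraries (log2 fold change −3.75, standard error 0.83, edgeR adjusted p = 0.0249), the sign of Dbp and not that of Per2. It was called with 1 of the 6 libraries left out in turn, and the adjusted p reached 0.301. In WT lung Ciart was 28.3, 55.9 and 80.0 CPM at 0h and 25.2, 1.2 and 26.9 CPM at 12 hours, and in αD KO lung it was 8.18, 13.4 and 14.5 CPM at 0h and 25.8, 2.54 and 20.0 CPM at 12 hours. Ciart was higher in lung than in blood by 3.09 on average (standard error 0.47, edgeR adjusted p = 0.000829), with means of 25.2 and 3.73 CPM. In that comparison 1.6% of all genes were called, and the difference of Ciart was called with every library left out in turn. Its averaged change with time was −1.61 (standard error 0.45, edgeR adjusted p = 0.0212).

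Bhlhe40, which encodes DEC1, another E-box repressor, was 22.9, 25.0 and 38.0 CPM at 0h and 707.2, 35.2 and 666.9 CPM at 12 hours in WT lung. Libraries 1a and 2 at 12 hours were high and library 1b was within the 0h range (log2 fold change 3.83, standard error 0.87, edgeR adjusted p = 0.0332, called with 1 of the 6 libraries left out in turn). The averaged change was 1.64 (standard error 0.51, edgeR adjusted p = 0.0392) and was called with only 4 of the 24 libraries left out in turn. Nfil3, the repressor that opposes Dbp at D-boxes, was the most abundant of the clock genes at a median of 105.6 TPM and was not called in any comparison. Of the 10 further genes, 1 was called lower and none higher in WT blood (13.5% of all genes called in either direction), 1 higher and none lower in WT lung (9.02%), and 1 in each direction in the average over time (7.72%). With lists this short, 1 call is near the share of all genes.

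Of 15 kinases, ligases and cofactors of the clock, 2 were called in WT blood, where 13.5% of all genes were, and none in the other comparisons. Csnk1e, the kinase that marks PER proteins for decay, was lower at 12 hours (means of 44.6 and 135.7 CPM, log2 fold change −1.77, standard error 0.33, edgeR adjusted p = 0.0157), and Wdr5, a chromatin cofactor, was higher (1.07, standard error 0.25, edgeR adjusted p = 0.0288). The call of Csnk1e held with 2 of the 6 libraries left out in turn and that of Wdr5 with 0 of 6.

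Per1 is itself a glucocorticoid target. Of a list of 9 genes, the glucocorticoid receptor gene and other targets, 2 were called higher and 2 lower in WT blood, 3 higher in WT lung, 1 higher in αD KO blood and none in αD KO lung, where 13.5%, 9.02%, 8.75% and 0.0% of all genes were called. Klf9, a direct target of the glucocorticoid receptor, was called in WT blood (2.95, standard error 0.36, edgeR adjusted p = 0.00373), in WT lung (4.94, standard error 0.64, edgeR adjusted p = 0.00713) and in αD KO blood (3.56, standard error 0.56, edgeR adjusted p = 0.0102). Fkbp5, which restrains the receptor, rose in WT blood (1.85) and WT lung (2.32), and Ddit4 rose in WT lung (4.31). Errfi1 (−2.65) and Zbtb16 (−3.61) fell in WT blood, so the list held calls in both directions. Averaged over genotypes and times, Dusp1 was higher in lung than in blood (1.44, standard error 0.37, edgeR adjusted p = 0.0444, called in 5 of 24 fits with a library left out), where 1.6% of all genes were called.

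Of 6 genes of neutrophil ageing, 3 were called in WT blood (13.5% of all genes) and 1 in WT lung (9.02%). Cxcr4, the receptor that retains neutrophils in the marrow, fell in WT blood (means of 84.3 CPM at 0h and 16.2 CPM at 12 hours, log2 fold change −2.55, standard error 0.38, edgeR adjusted p = 0.00705) and in αD KO blood (−2.03, standard error 0.49, edgeR adjusted p = 0.0407). Itgam (1.81) and Icam1 (2.09) rose in WT blood, and the chemokine gene Cxcl2 rose in WT lung (3.37) and αD KO blood (3.01). Cxcr4 and Cxcl2 were also higher in lung than in blood on average (1.93 and 2.08), where 1.6% of all genes were called. When single libraries were dropped, the call of Klf9 held in 2 of 6 fits in WT blood, 2 of 6 in WT lung and 5 of 6 in αD KO blood, and that of Cxcr4 in 2 of 6 in WT blood and 0 of 6 in αD KO blood. In WT blood the calls of Fkbp5, Errfi1, Zbtb16 and Itgam held in 2 of 6 and that of Icam1 in 1 of 6. In WT lung that of Ddit4 held in 2 of 6 and those of Fkbp5 and Cxcl2 in 1 of 6, and Cxcl2 in αD KO blood held in 4 of 6. Between lung and blood, Cxcr4 held in 24 of 24 and Cxcl2 in 5 of 24. In the average over time, Klf9 (2.57), Zbtb16 (−1.76), Ddit4 (2.14) and Cxcl2 (2.01) were called in all 24 such fits, Cxcr4 (−1.33) in 23, Fkbp5 (1.31) in 20, Itgam (1.02) in 5 and Icam1 (1.75) in 3. These lists were written with earlier results of these data known, and the counts describe them only.

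Within groups, the clock genes varied together in part. Over the 24 libraries, Pearson's r of the deviations of log2 CPM from the group means was 0.82 for Per1 and Per2 (Spearman's rho 0.84), 0.82 for Per1 and Cry2 (0.76) and 0.58 for Per2 and Cry2 (0.5). It was 0.63 for Cry2 and Dbp, 0.53 for Arntl and Tef, 0.46 for Arntl and Nr1d2, and negative for Arntl and Cry1 (−0.5) and for Cry1 and Tef (−0.5). Arntl and Dbp had an r of −0.28. The points share their libraries and depth, the libraries 1b enter each group once, and no p is given. The 3 αD KO lung libraries that went against their labels also enter as deviations within their groups. Of these, 0h library 2 held 171.5 CPM of Per1 and 143.9 CPM of Per2. Library 1b of the same group held 31.9 and 32.6 CPM. A difference between the times can thus be part of these r.

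**Figure D5:**
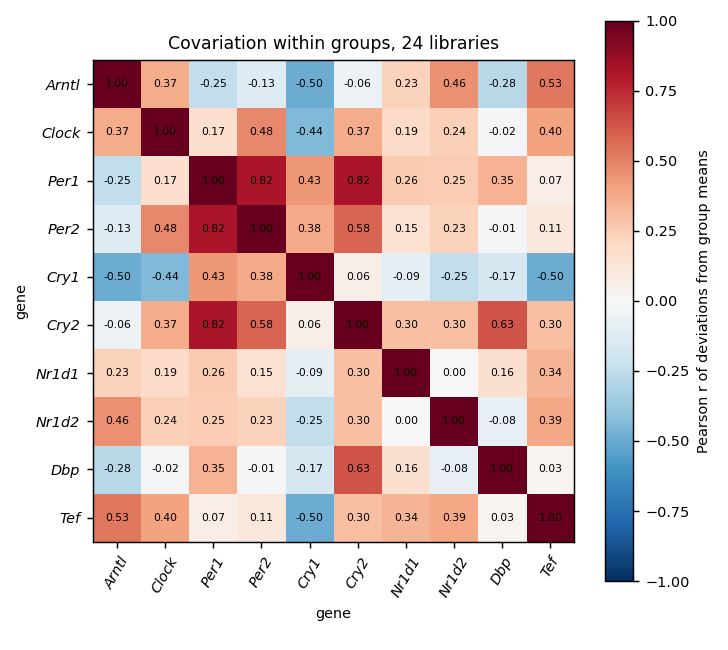
Each cell holds Pearson's r between the deviations of 2 genes from their group means of log2 CPM over 24 libraries, from blue (negative) to red (positive). Per1 stood highest with Per2 and Cry2, at 0.82 each, and Arntl was negative with Cry1 at −0.5.

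Genes most like each clock gene were taken from 6634 genes at a mean of 10 CPM or more by Pearson's r of log2 CPM over all 24 libraries, for the 5 clock genes that reach this mean. They were Cdkn1a (0.94), Rprd1b and Crtc2 (0.93 each) for Per1, and Sipa1l1 (0.94), Ift57 and Mboat7 (0.93 each) for Per2. For Cry1 they were Fbxo28 (0.86), Ripk1 (0.85) and Wdfy3 (0.84), for Cry2 Kansl3 and Gnl1 (0.91 each) and Atp2b1 (0.9), and for Clock Psme4, Kat6b and Ap4e1 (0.79 each). These values hold the differences between groups as well as those within them, and no clock gene was among the 3 most like another.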

How the data were processed

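RNA of sorted neutrophils was amplified with SMART-Seq v4 and sequenced in pairs. Per the submitters' processing notes, reads were trimmed with Trimmomatic 0.36 and aligned with STAR 2.5.2b to GRCm38 (mm10). The values deposited by the authors are raw counts of unique reads in exons per gene, and the counting tool and strand setting are not given in the sources used here. Amplified reads without molecular identifiers are not independent molecules, so limits from a count of 0 cover counting error only.

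Each of the 24 files was taken as a library (n = 3 libraries from 2 samples in each of 8 groups), and libraries 1a and 1b of the same sample differed beyond sampling noise in every group. Genes were filtered with filterByExpr, scaled by TMM and tested with edgeR 4.0.16 (quasi-likelihood test, limma 3.58.1, R 4.3.3) in 12 comparisons of 2 groups, 3 averages over all groups and 4 interaction terms. p-values were adjusted by Benjamini-Hochberg over all genes tested in a comparison, and called means adjusted p under 0.05 and absolute log2 fold change over 1. An exact permutation test of 3 against 3 cannot go below p = 0.1, so none is given. Log2 CPM of the arms used a prior count of 2 (0.5 as an alternative). TPM was computed from counts and exonic gene length. Scripts used Python 3.11.15 and were tested on simulated data.

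The genes in full are the 10 clock genes, the other lists give the genes called, and likeness names the 3 genes of highest r. A result of the neutrophil ageing list is not reported here. The members and lists were chosen with earlier results of these data known. Alternatives were RLE scaling, no filter, at least 10 counts in every library, DESeq2 1.42.0, all 8 groups in a fit, summed files of sample 1, libraries 1a and 2 alone, a block for library number, leaving out the 3 αD KO lung libraries that stood apart, and leaving out each library. Same-numbered libraries deviated together (every correlation over 0.1) in 6 of the 12 comparisons of 2 groups, with 0.164 to 0.59 in WT blood over time, and the labels state no pairing.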

Additional observations from a re-analysis of the deposited data

How the results depend on the processing

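The counts of clock genes called moved with the processing, as did the share of all genes called, which follows each count as a percentage. With the files of sample 1 summed, the number called was 1 in WT blood (15.9%), 2 in WT lung (12.3%) and 0 in αD KO blood (3.84%) over time, and 1 between WT tissues (4.47%) and 1 between αD KO tissues (8.27%) at 12 hours. With libraries 1a and 2 alone it was 2 in WT blood (23.1%) and 2 in WT lung (37.2%) over time. In the same setting it was 3 between the genotypes in lung (30.1%), 4 between WT tissues (28.2%, among them Nr1d1, which passed the filter through lung alone) and 4 between αD KO tissues (34.3%) at 12 hours, 2 for time by tissue in WT (7.41%) and 1 for the average between tissues (7.36%). The 4 between αD KO tissues were Clock, Per1, Per2 and Dbp, and both αD KO lung libraries used there went against their 12h label. With summed files the 1 call between αD KO tissues was Per2 (−1.52, edgeR adjusted p = 0.0284). With no filter on low counts the number called was 1 in WT lung (3.15%), 2 in αD KO blood (4.05%), 1 between the genotypes in blood at 12 hours (0.207%) and 1 between WT tissues at 12 hours (1.59%). DESeq2 called 2 in WT lung (19.0%), 2 in αD KO blood (15.9%), 1 between WT tissues at 12 hours (6.59%) and 2 in the average over time (12.3%), and all 8 groups in a fit gave 0 in αD KO blood (0.236%).

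The block for the replicate (library number) gave 2 in αD KO blood (10.7%), Per1 (1.80, edgeR adjusted p = 0.0105) and Per2 (1.99, edgeR adjusted p = 0.0266), where same-numbered libraries share only a number (lowest correlation 0.064). The block changed no other count of calls. Without the 3 αD KO lung libraries that stood apart it was 1 in αD KO lung (1.41%) and 2 in the average over time (8.38%). The added gene is Dbp, whose fitted −8.77 in αD KO lung and −3.18 in the average rest on a library with 0 counts and are no bound.

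When single libraries were dropped, the number called was 0 to 1 in WT blood (18.4% where it was 1), 0 to 2 in WT lung (25.3% where it was 2) and 0 to 1 in αD KO blood (0.456% to 4.67% where it was 0) over time. At 12 hours it was 0 to 1 between the genotypes in lung (1.11% where it was 1), 0 to 3 between WT tissues (20.2% where it was 3, again with Nr1d1) and 0 to 1 between αD KO tissues (11.2% where it was 1: Per2, −1.85, edgeR adjusted p = 0.0492 without lung library 1b). Both αD KO lung libraries left in that last fit went against their 12h label. In the average over time the number called was 0 to 1 (5.23% to 8.07% where it was 0). It was 0 in every such fit of the other comparisons. The differences of the arms moved by less than the spread between libraries with a prior count of 0.5. RLE scaling moved the median log2 fold change of all genes in the average over time from −0.51 to −0.65. Without the 3 αD KO lung libraries the PAR bZIP arm in αD KO lung differed by −2.78. This value, the arms in libraries 1a and 2 alone and the alternatives for the 4 other lists were chosen after seeing the data. The causes of these differences were not tested.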
